A study of Mus musculus with 11 samples.

Results

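The comparison set the transcriptional effect of the Bcl11b D/N440K genotype against the effect of Tcf7 deletion in mouse thymocytes that carry neither CD24 nor the T cell receptor β chain on their surface. For each gene, the log2 change from Bcl11b +/+ to Bcl11b D/N440K (the Bcl11b change) was compared with the log2 change from Tcf7 +/+ to Tcf7 F/F : Vav1-Cre (the Tcf7 change), and the difference between both changes was itself tested. The members were the 10256 autosomal genes listed in both normalised tables of the authors, of 53402 gene identifiers present in both count tables. A further 275 genes listed in both tables lie on X, Y or another sequence and were left out. Genes fell into classes by 3 tests: moved in the same direction, moved in opposite directions, or one-sided, which required that exactly 1 of the 2 changes and the difference between them passed.

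The Bcl11b groups held 2 libraries of Bcl11b +/+ and 2 of Bcl11b D/N440K, from thymus at postnatal day 0. N440K names a single-residue change in Bcl11b, while the allele written D is left undefined in the labels. At postnatal day 7, 2 libraries of Tcf7 +/+ (the Tcf7 controls) and 3 labelled Tcf7 F/F : Vav1-Cre (the Tcf7 mutants) were made, the latter with a floxed Tcf7 gene and a Cre recombinase driven by Vav1, which is active in blood cells. Age and table therefore differ between both changes as well as the gene altered, and what each contributes cannot be told apart. Sex-linked RNA also differed within the Tcf7 comparison. Both Tcf7 controls held Y-linked RNA with little Xist RNA, whereas Tcf7 mutant replicates 1 and 3 held Xist RNA with almost no Y-linked RNA. The part of sex in the Tcf7 change was not separated from that of genotype in the main tests. The labels do not say that libraries of a group came from separate animals, so p-values measure the spread between these libraries, which may be technical.

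Bcl11b is a zinc-finger factor that T cell precursors switch on at commitment, and it holds down programs of natural killer (NK) and other innate lymphoid cells. Tcf7 encodes TCF-1, an HMG-box factor that acts earlier under Notch signalling, opens T lineage genes and is also needed by innate lymphoid cell precursors. Group 3 innate lymphoid cells and type 17 γδ T cells respond to interleukin 1, whereas NK cells and group 1 innate lymphoid cells use the T-box factors T-bet and Eomes. In bulk RNA, fewer cells of a type and less RNA per cell cannot be told apart.

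The libraries held 999381 to 1842717 counts, of which 93.5 to 95.5% fell in the compared genes. Levels are normalised read counts (CPM), scaled over the 9 libraries together. Cd24a, the gene of the sorted-out antigen, was low throughout but lower in both mutants. It stood at 10.5 and 12.8 CPM in Bcl11b +/+, 3.55 and 1.06 in D/N440K, 9.41 and 11.7 in the Tcf7 controls, and 2.59, 1.79 and 2.36 in the Tcf7 mutants. Thy1 stood at 507 and 443, 484 and 494, 312 and 257, and 557, 448 and 458 CPM in the same order of groups. Ptprc, the pan-leukocyte CD45 gene, stood at 1212 and 1144, 1336 and 1335, 1396 and 1708, and 1053, 976 and 932 CPM. Of the altered genes, Bcl11b stood at 658 and 518 CPM in Bcl11b +/+, 157 and 212 in D/N440K, 338 and 356 in the Tcf7 controls, and 223, 283 and 249 in the Tcf7 mutants. Bcl11b fell in both, by a log2 change of -1.68 ± 0.15 (SE) and -0.46 ± 0.13, with a difference of -1.22 ± 0.20 (edgeR adjusted p = 1.15e-04). Its Tcf7 change missed the threshold without Tcf7 F/F : Vav1-Cre replicate 1 (edgeR adjusted p = 0.0505). The call was also lost with limma on CPM and with libraries holding Y-linked RNA only. Tcf7 RNA stood at 1026 and 844 CPM in Bcl11b +/+, 712 and 745 in D/N440K, 576 and 617 in the Tcf7 controls, and 903, 694 and 736 in the Tcf7 mutants. It was one-sided and higher in the mutant, at -0.36 ± 0.12 and 0.38 ± 0.11 with a difference of -0.74 ± 0.16 (edgeR adjusted p = 0.00287), but this held in 11 of the 20 alternatives only. Its Tcf7 change missed the threshold without Tcf7 F/F : Vav1-Cre replicate 1 (0.26, edgeR adjusted p = 0.0745), and the difference missed it without Bcl11b +/+ replicate 1 (-0.59, edgeR adjusted p = 0.0528). Its Bcl11b change passed without Tcf7 +/+ replicate 1, Tcf7 +/+ replicate 2 or Tcf7 F/F : Vav1-Cre replicate 1 (edgeR adjusted p = 0.00676, 0.00404 and 0.0404). Counts over the whole Tcf7 gene were thus not lower in the library set labelled as deleted, and they hold no separate value for the floxed exons, so these counts do not check the deletion. The Bcl11b libraries held Y-linked and Xist RNA together (Xist 312 to 512 CPM), both Tcf7 +/+ libraries and Tcf7 F/F : Vav1-Cre replicate 2 held Y-linked RNA with Xist at 0.586 to 6.55 CPM, and the other Tcf7 F/F : Vav1-Cre libraries held Xist at 1547 and 1803 CPM. The Tcf7 +/+ pair differed more than any other pair of a group (chi-square per degree of freedom 5.12, against 1.13 to 1.92).

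Markers of other cell types moved in some of the same libraries, and their part in the results below was not tested. Summed over 15 B lineage genes, of which 4 entered the tests, levels were 681 and 685 CPM in Bcl11b +/+, 277 to 298 in D/N440K, 1286 to 1348 in the Tcf7 controls and 464 to 531 in the Tcf7 mutants. That sum includes Rag1, and Vpreb3 was at 0 throughout. The 20 myeloid genes summed to 162 and 205 CPM in Bcl11b +/+, 362 and 382 in D/N440K, 642 and 1152 in the Tcf7 controls and 1484 to 1669 in the Tcf7 mutants, with Elane and Ltf at 0. The 16 dendritic and MHC class II genes summed to 1481 and 1762, 1074 and 1168, 3156 and 4332, and 3987 to 4380 CPM in the same order of groups. That sum includes Ccr9, which thymocytes also express, at 587 and 509 CPM in Bcl11b +/+ and 73.8 and 56.1 in D/N440K. Its level was 515 and 450.5 CPM in the Tcf7 controls and 233 to 251 in the Tcf7 mutants. Itgax of the same list went from 36.7 and 29.8 CPM in Bcl11b +/+ to 130 and 141 in D/N440K. Mast cell and basophil genes (10) reached 6.80 to 16.9 CPM in the 4 Bcl11b libraries, 36.9 and 41.7 CPM in the Tcf7 controls and 130 to 152 CPM in the Tcf7 mutants. The 14 stromal and epithelial genes summed to 195 and 199, 103 and 126, 231 and 276, and 910 to 1016 CPM, most of the last from Pdgfrb, with Col1a1 at 0 to 3.40 CPM in every library. Erythroid genes (12) summed to 141 to 321 CPM, with Car1 at 0.

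Both alterations changed many genes, and some of the genes changed in both moved in opposite directions. The Bcl11b change passed the test for 392 genes higher (3.82%) and 415 lower (4.05%), together 7.87% of the 10256. The Tcf7 change passed for 1422 higher (13.9%) and 1442 lower (14.1%), together 27.9%. The difference between both changes passed for 601 genes in the positive (5.86%) and 639 in the negative direction (6.23%), together 12.1%. Of 512 genes that passed in both, 151 rose in both (1.47% of all genes), 178 fell in both (1.74%), 79 rose in Bcl11b D/N440K and fell in Tcf7 F/F : Vav1-Cre (0.77%), and 104 did the reverse (1.01%). Same-direction genes were thus 3.21% and opposite genes 1.78% of all. The 512 were 63.4% of the genes of the Bcl11b change and 17.9% of those of the Tcf7 change, and 35.7% of them were opposite. One-sided changes numbered 155 for Bcl11b D/N440K (77 higher, 0.751%, and 78 lower, 0.761%, together 1.51% of all) and 768 for Tcf7 F/F : Vav1-Cre (380 higher, 3.71%, and 388 lower, 3.78%, together 7.49%). A further 140 genes passed only in the Bcl11b change (1.37%) and 1584 only in the Tcf7 change (15.4%) while the difference did not pass, so they are not shown to differ between alterations. Another 73 (0.712%) passed for the difference alone, and 7024 (68.5%) passed in none of the 3 tests. Across the 10256 genes, both changes had a Pearson r of 0.231 and a Spearman rho of 0.098. Within the 512 genes the values were 0.442 and 0.329. These describe genes, which are not independent replicates. The Tcf7 groups hold 5 libraries and the Bcl11b groups 4, at different spreads, so the counts do not rank both alterations by size. Leaving out Tcf7 +/+ replicate 1 raised the calls of the difference to 2584, and leaving out Bcl11b +/+ replicate 1 or Bcl11b D/N440K replicate 2 lowered them to 761 and 815. The opposite genes numbered 278 without Tcf7 +/+ replicate 1, 108 without Bcl11b +/+ replicate 1, 110 without D/N440K replicate 1 and 119 without D/N440K replicate 2.

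**Figure D1:**
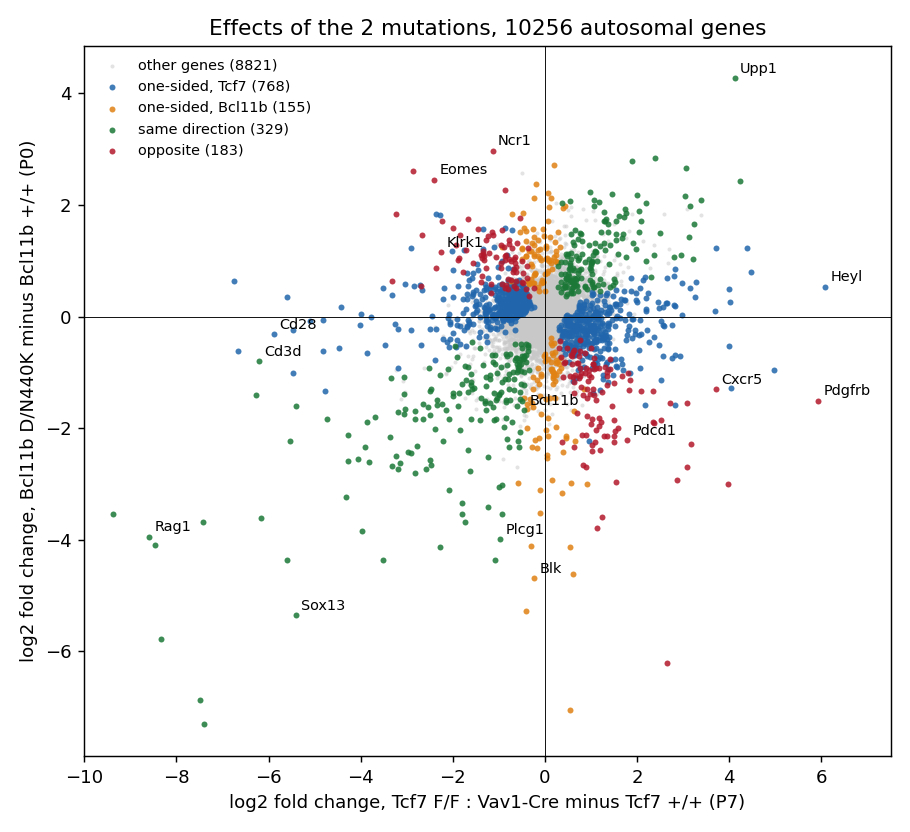
Log2 change in Tcf7 F/F : Vav1-Cre (x axis) against log2 change in Bcl11b D/N440K (y axis) for the 10256 genes, each point a gene, coloured by class. The 183 opposite genes lie in the upper left and lower right quadrants, the 329 same-direction genes in the other two, and the 155 and 768 one-sided genes lie toward the vertical and horizontal axes.

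Of the gene lists, that of NK and group 1 innate lymphoid cells held the most genes of the first opposite kind: higher in Bcl11b D/N440K and lower in Tcf7 F/F : Vav1-Cre. Of 29 tested genes of that list, 23 rose (3.82% of all genes did) and 0 fell in Bcl11b D/N440K. In Tcf7 F/F : Vav1-Cre 7 rose and 15 fell, where 13.9% and 14.1% of all genes did. Opposite members numbered 14, where 1.78% of all genes were. The list's median log2 change was 1.04 in Bcl11b D/N440K and -0.62 in Tcf7 F/F : Vav1-Cre, beside 0.03 and 0.00 over all genes. Without Bcl11b +/+ replicate 1 the number of opposite members was 9.

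Eomes, a T-box factor of NK cells (chr9:118478212-118486132, plus strand, GRCm38), stood at 17.8 and 26.4 CPM in Bcl11b +/+, 147 and 98.4 in D/N440K, 36.5 and 18.2 in the Tcf7 controls, and 3.45, 7.14 and 4.13 in the Tcf7 mutants. Both D/N440K libraries lay above their +/+ pair and all 3 Tcf7 mutant libraries lay below theirs, with no overlap in either table. The log2 changes were 2.45 ± 0.30 and -2.41 ± 0.38, a difference of 4.86 ± 0.48 (edgeR adjusted p = 1.23e-07). Tbx21, which encodes T-bet (chr11:97098071-97115331, minus strand), stood at 145 and 148 CPM in Bcl11b +/+, 306 and 359 in D/N440K, 112 and 84.4 in the Tcf7 controls, and 40.5, 37.5 and 37.7 in the Tcf7 mutants. It moved apart in the same way, without overlap, by 1.18 ± 0.15 and -1.35 ± 0.16, with a difference of 2.53 ± 0.22 (edgeR adjusted p = 2.16e-08).

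Among the receptors, Ncr1, the gene of the activating receptor NKp46 (chr7:4337724-4345164, plus strand), stood at 20.99 and 13.6 CPM in Bcl11b +/+, 144 and 123 in D/N440K, 124 and 89.6 in the Tcf7 controls, and 51.7, 54.8 and 39.5 in the Tcf7 mutants. Bcl11b +/+ held the lowest values, and groups did not overlap within either table. Its difference was 4.11 ± 0.32 (edgeR adjusted p = 3.66e-09), from changes of 2.97 and -1.14. Klrk1, which encodes the receptor NKG2D (chr6:129610323-129623864, minus strand), stood at 77.7 and 112 CPM in Bcl11b +/+, 193 and 235 in D/N440K, 149 and 183 in the Tcf7 controls, and 28.4, 30.96 and 43.6 in the Tcf7 mutants. Groups did not overlap within either table, and the difference was 3.40 ± 0.27 (edgeR adjusted p = 3.83e-09), larger on the Tcf7 side (-2.25) than on the Bcl11b side (1.15). Klrb1c, the NK1.1 gene, was opposite with changes of 1.45 and -1.24. The inhibitory receptor chain Klrd1 changed by 0.73 and -1.37, but its Bcl11b change missed the threshold without Bcl11b +/+ replicate 1 (0.63, edgeR adjusted p = 0.0762) and without D/N440K replicate 1 (0.67, edgeR adjusted p = 0.0573).

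Adhesion and cytokine receptors of these cells followed. Itga2 and Itga1, integrin chains that mark NK cells and group 1 innate lymphoid cells, changed by 1.56 and 1.04 in Bcl11b D/N440K and by -1.45 and -1.36 in Tcf7 F/F : Vav1-Cre. Their partner chain Itgb1 changed by 1.04 and -0.77. Il12rb2, a chain of the receptor for interleukin 12, changed by 1.11 and -1.35, and the death ligand gene Tnfsf10 (TRAIL) by 0.80 and -0.62. All of these passed in both changes and in the difference (edgeR adjusted p of the difference between 1.44e-08 for Itga1 and 1.54e-05 for Tnfsf10). Tgfb3, a ligand of the TGF-β family, had a difference of 5.08 ± 0.49 (edgeR adjusted p = 7.94e-08), from 33.6 and 44.2 CPM to 135 and 146 CPM in the Bcl11b libraries, and from 16.5 and 39.2 CPM to 1.72, 2.38 and 4.13 CPM in the Tcf7 libraries. The Tcf7 +/+ pair of Tgfb3 was uneven but lay above all 3 mutants. Arl4d, a small GTPase of the ARF family, had the largest difference of the 79 genes, 5.46 ± 0.59 (edgeR adjusted p = 3.71e-07).

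The NK list did not move as 1 block. Klrb1b, an inhibitory lectin receptor gene, Cd244a, Fcer1g and Fcgr3 rose in both alterations and made up the 4 members that moved in the same direction. That number was 1 when any Bcl11b library was left out, 2 without Tcf7 F/F : Vav1-Cre replicate 1 and 7 without Tcf7 +/+ replicate 1. Cytotoxic granule and effector genes divided further. Of 20 tested, 10 rose in Bcl11b D/N440K, where 3.82% of all genes did. In Tcf7 F/F : Vav1-Cre 8 fell and 2 rose, where 14.1% and 13.9% of all genes did. Opposite members numbered 7, where 1.78% of all genes were. Among them were Gzmc (1.46 and -1.84), Nkg7 (0.52 and -0.63) and the chemokine gene Xcl1 (0.95 and -0.66). Placement varied among opposite genes of both lists. Of the NK receptor genes, Klre1 and Klra5 were opposite in 9 and 10 of the 20 alternatives, and Ncr1, Klrk1 and Klrb1c in all 20. Of the cytotoxic list, Ccl5 was opposite in 6 of the 20, and Xcl1 and Serpinb9 in 19. Between 2 and 7 members of the cytotoxic list were opposite under the alternatives. The lowest count, 2, came without Bcl11b D/N440K replicate 1. Counts of 3 came without Bcl11b +/+ replicate 1, with DESeq2 and with libraries holding Y-linked RNA only, and counts of 4 came without Bcl11b +/+ replicate 2, without D/N440K replicate 2 and with limma on CPM. The granzymes Gzma and Gzmb, chosen after their values were seen, were placed elsewhere: Gzma was one-sided (1.34, against 0.22 with Tcf7 edgeR adjusted p = 0.215) and Gzmb rose in both (1.14 and 0.57).

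The type 17 and group 3 innate lymphoid program was the leading set in the other opposite direction, lower in Bcl11b D/N440K and higher in Tcf7 F/F : Vav1-Cre. Of 16 tested genes, 9 fell and 3 rose in Bcl11b D/N440K, where 4.05% and 3.82% of all genes did. In Tcf7 F/F : Vav1-Cre 12 rose and 1 fell, where 13.9% and 14.1% of all genes did. The difference was negative and called for 13 of the 16, where it was for 6.23% of all genes. The list's medians were -1.18 and 1.03 in the 2 changes. Opposite members numbered 8, of which 7 were lower in Bcl11b D/N440K, among them Il1r1, Il17re, Il17rc, Ccr6, Cxcr5 and Nrp1, and Ncr1, which the list shares with the NK list, went the other way. Of all genes, 1.78% were opposite. The opposite count of the list ranged from 6 to 9 over the alternatives. Nrp1, a coreceptor for semaphorins, was opposite in 12 of the 20 alternatives only. Its Bcl11b change was lost with DESeq2, with limma-voom and without each Bcl11b library in turn (edgeR adjusted p between 0.0559 and 0.231 for the last), and its Tcf7 change with limma on CPM and with libraries holding Y-linked RNA only.

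Il1r1, the interleukin 1 receptor gene (chr1:40225080-40317257, plus strand), stood at 125 and 113 CPM in Bcl11b +/+, 24.9 and 20.1 in D/N440K, 157 and 211 in the Tcf7 controls, and 495, 376 and 398 in the Tcf7 mutants. Its groups were apart in both tables, with D/N440K below its +/+ pair and each Tcf7 mutant library above both of its controls. The changes were -2.38 ± 0.24 and 1.20 ± 0.14, with a difference of -3.58 ± 0.28 (edgeR adjusted p = 3.34e-09). Il17re, a receptor subunit for interleukin 17C, changed by -1.89 and 1.22, and its partner family member Il17rc by -1.82 and 1.18. Il17rc kept its Bcl11b call under all alternatives run but 1, without D/N440K replicate 1 (-1.41, edgeR adjusted p = 0.0727). Ccr6, the receptor for the chemokine CCL20, changed by -1.32 and 1.81, and its Bcl11b change missed the threshold without D/N440K replicate 2 (-0.91, edgeR adjusted p = 0.0732).

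Cxcr5, a chemokine receptor of lymphoid tissue inducer and follicular cells (chr9:44511787-44561877, minus strand), stood at 69.3 and 56.1 CPM in Bcl11b +/+, 21.3 and 29.6 in D/N440K, 28.2 and 31.1 in the Tcf7 controls, and 430.2, 359 and 379.8 in the Tcf7 mutants. The Tcf7 mutant libraries were more than an order of magnitude above their controls, while the D/N440K pair lay below its own. The difference was -5.01 ± 0.28 (edgeR adjusted p = 2.21e-11), and Cxcr5 overlaps Bcl9l in the annotation. Pdcd1, which encodes PD-1, an inhibitory receptor also present on innate lymphoid precursors (chr1:94038305-94052553, minus strand), stood at 202 and 224 CPM in Bcl11b +/+, 40.9 and 51.8 in D/N440K, 91.7 and 99.6 in the Tcf7 controls, and 358, 289 and 343 in the Tcf7 mutants. No library of any group overlapped its counterpart, and the difference was -3.998 ± 0.22 (edgeR adjusted p = 2.01e-11).

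Other genes of this second opposite kind were spread over receptors and factors. Ptgdr2, the prostaglandin D2 receptor CRTH2 of group 2 innate lymphoid cells, changed by -1.54 and 3.09. Ccr7, a lymph node homing receptor, changed by -1.83 and 1.02, and Il4ra, the interleukin 4 receptor chain, by -0.93 and 1.17. Cd4, the coreceptor gene, changed by -2.67 and 0.82, although the pre-T list that holds it mostly fell in both. Among factors, Maf changed by -1.17 and 0.63. Runx1 changed by -0.82 and 0.41, where the Tcf7 call was lost with limma on CPM and with libraries holding Y-linked RNA only. Hlf, a bZIP factor of progenitors, changed by -3.60 and 1.25, and its Tcf7 call was lost with limma on CPM.

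Pdgfrb, the platelet-derived growth factor receptor β gene, had one of the largest differences of these genes. It stood at 67.2 and 75.7 CPM in Bcl11b +/+, 20.4 and 30.7 in D/N440K, 10.6 and 7.62 in the Tcf7 controls, and 572, 519.7 and 596 in the Tcf7 mutants. All 3 Tcf7 mutant libraries lay far above every other library, and D/N440K lay below Bcl11b +/+. The difference was -7.44 ± 0.30 (edgeR adjusted p = 5.20e-14). Of the other stromal and epithelial genes, the fibroblast genes Col1a1, Col1a2, Col3a1, Dcn and Pdgfra were at 0 to 3.40 CPM in every library. Pecam1, an endothelial adhesion gene that some blood cells also express, rose with Pdgfrb in the Tcf7 mutants, from 208 and 186 CPM to 382, 323 and 356 CPM, a change of 0.84 ± 0.12 (one-sided, edgeR adjusted p of the difference = 0.00184). Krt8, an epithelial keratin gene outside the tests, stood at 1.18 and 5.27 CPM in the Tcf7 controls and at 20.7, 26.2 and 17.7 CPM in the Tcf7 mutants. The rest of that list did not rise with them. Cdh5 stood at 34.1 and 16.99 CPM in the Tcf7 controls and at 18.97, 26.2 and 30.7 CPM in the Tcf7 mutants. Epcam stood at 11.8 and 7.62 CPM against 5.17, 10.1 and 8.26 CPM. Sparc stood at 5.88 and 2.34 CPM against 0, 0.595 and 1.77 CPM. Krt5, Foxn1 and Psmb11 were at 0 to 3.45 CPM in the Tcf7 libraries. Zp1, an egg coat gene, had the most negative difference, with 90 counts over both Bcl11b +/+ libraries against 1 in D/N440K, a ratio of 87.5 (exact 95% interval 15.3 to 3500, counting error only), while its Tcf7 change was 2.64 ± 0.39.

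**Figure D2:**
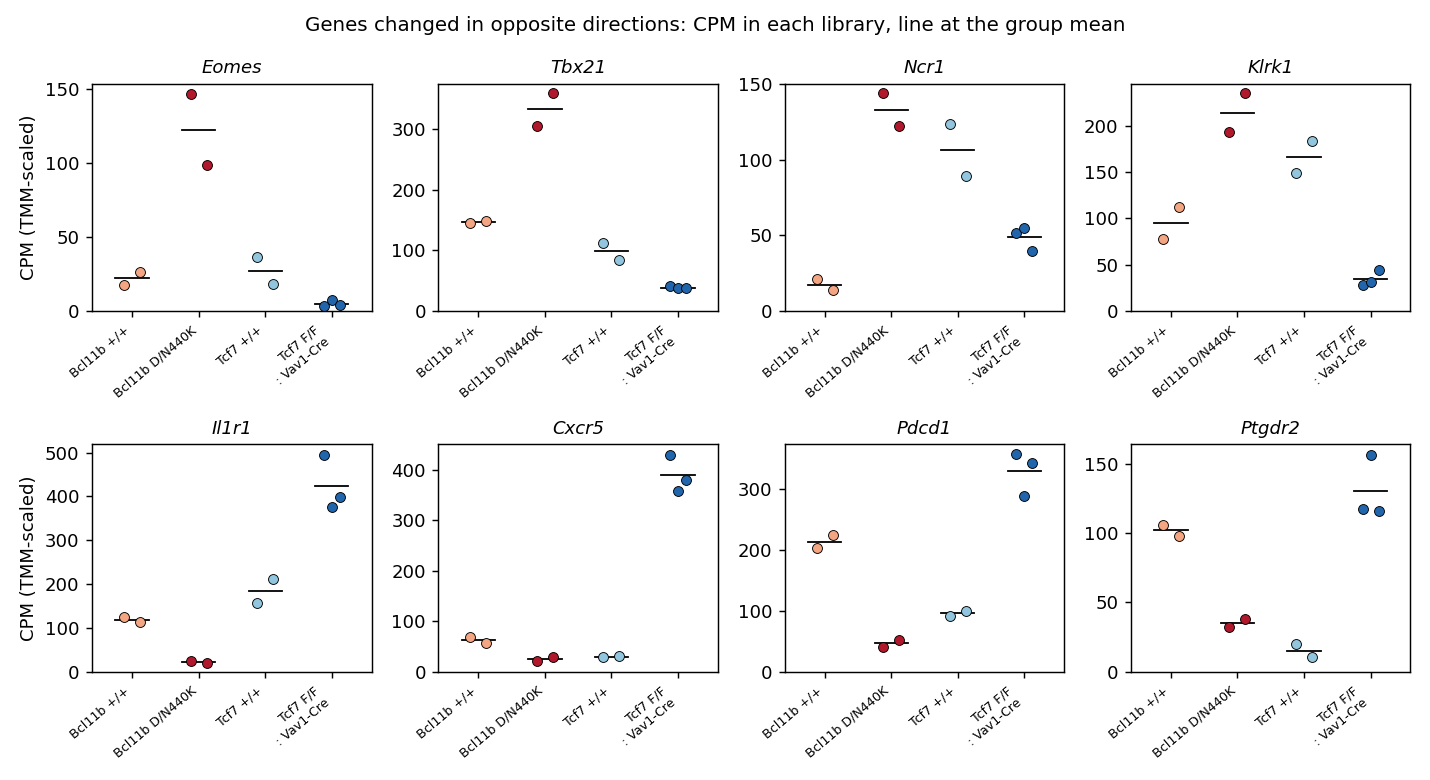
CPM in each of the 9 libraries for 8 genes with opposite changes, one panel per gene, points for libraries and lines for group means. Eomes, Tbx21, Ncr1 and Klrk1 are higher in Bcl11b D/N440K and lower in Tcf7 F/F : Vav1-Cre than in their controls, and Il1r1, Cxcr5, Pdcd1 and Ptgdr2 show the reverse, with no overlap within a table.

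Over all 79 genes of the first opposite kind, the Bcl11b change had a median of 1.03 and the Tcf7 change one of -0.96, and differences ran from 0.72 to 5.46. The mutant and control libraries were fully apart in both tables for 75 of the 79. Of all genes, 51% were apart in the Bcl11b table, 48.3% in the Tcf7 table and 26.5% in both. Over the 104 genes of the second kind, the medians were -1.31 and 1.04, differences ran from -8.85 to -0.75, and libraries were apart in both tables for 104. Since calls chose these genes, those figures describe the sets and support nothing further. Under each of the 20 alternatives, from 58.5 to 100% of the 183 genes stayed opposite, lowest without Bcl11b D/N440K replicate 1, and 0 moved to the same-direction class.

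Both factors bind DNA, so the sequence just upstream of the opposite, shared and one-sided genes was searched for the TCF/LEF core (CTTTGA or its complement TCAAAG) and for the TGACCA motif bound by BCL11 zinc fingers (or its complement TGGTCA). Windows ran from 250 bases before to 50 after each RefSeq start (GRCm38.p6), with 9833 windows for 7689 matched symbols of the compared genes, and windows of 1 gene can overlap. The TCF/LEF core was in 11.4% of the windows of compared genes and in 9.9 to 13.4% within each class. TGACCA was in 10.7% of the windows of compared genes. It was in 16 of 89 windows (18.0%) of genes higher in Bcl11b D/N440K and lower in Tcf7 F/F : Vav1-Cre, in 15 of 88 of the reverse kind, in 25 of 158 (15.8%) of genes higher in both and in 11 of 183 (6.0%) of genes lower in both. In the 4 one-sided classes it was in 9.3 to 12.2% of windows, near the share of all compared genes. These shares are descriptions without a test, and a match is not evidence that a protein binds there. The stretches below, 60 bases each and read 5′ to 3′ on the gene's strand, show where the letters fall (capitals) upstream of genes named in the text.
Ncr1, chr7:4337484-4337543, plus strand: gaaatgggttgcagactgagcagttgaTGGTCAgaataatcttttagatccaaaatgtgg
Klrb1c, chr6:128788696-128788755, minus strand: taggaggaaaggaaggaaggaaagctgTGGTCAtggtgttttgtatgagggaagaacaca
Xcl1, chr1:164935537-164935596, minus strand: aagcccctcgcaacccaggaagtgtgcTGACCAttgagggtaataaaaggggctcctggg
Il17re, chr6:113458691-113458750, plus strand: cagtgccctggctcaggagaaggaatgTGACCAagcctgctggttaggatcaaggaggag
Ccr6, chr17:8235860-8235919, plus strand: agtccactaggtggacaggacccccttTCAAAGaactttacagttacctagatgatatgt
Ptgdr2, chr19:10937072-10937131, plus strand: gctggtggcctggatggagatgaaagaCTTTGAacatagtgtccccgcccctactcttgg
Cd3d, chr9:44981695-44981754, plus strand: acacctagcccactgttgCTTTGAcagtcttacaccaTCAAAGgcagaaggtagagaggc

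Ncr1, Klrb1c and Xcl1 are opposite genes that were higher in Bcl11b D/N440K, and Il17re is one that was lower there. Ccr6 and Ptgdr2 carry the TCF/LEF core and rose in Tcf7 F/F : Vav1-Cre. Cd3d, a subunit of the T cell receptor complex that fell in both, carries 2 matches of that core in the stretch shown. These examples do not stand for their classes. The core was in 10.2% of windows of genes lower in Bcl11b D/N440K and higher in Tcf7 F/F : Vav1-Cre. It was in 10.4% of windows of genes lower in both, against 11.4% for all compared genes.

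Genes of early T cell development fell in both alterations. Of 16 tested genes of the pre-T cell receptor, recombination and double-positive list, 13 fell in Bcl11b D/N440K, where 4.05% of all genes did. In Tcf7 F/F : Vav1-Cre 13 fell as well, where 14.1% of all genes did. Lower in both were 11, where 1.74% of all genes were, and the medians were -2.50 and -1.67. Opposite members numbered 2, Cd4 among them, where 1.78% of all genes were opposite. The same-direction count of the list ran from 8 to 13 over the alternatives. Rag1, which encodes a subunit of the recombinase that assembles antigen receptor genes (chr2:101638282-101649501, minus strand), stood at 215 and 221 CPM in Bcl11b +/+, 8.89 and 20.1 in D/N440K, 342 and 415 in the Tcf7 controls, and 0.862, 1.19 and 0.590 in the Tcf7 mutants. Both mutants were below their controls without overlap, and the Tcf7 mutants were at 0.590 to 1.19 CPM. The changes were -3.95 ± 0.24 and -8.60 ± 0.28, with a difference of 4.65 ± 0.59 (edgeR adjusted p = 3.01e-06). Rag2, the other subunit, chosen after its values were seen, went from 29 to 2 counts in the Bcl11b libraries (ratio 14.1, exact 95% interval 3.57 to 122) and was at least 24.0-fold lower in the Tcf7 mutants, in which it had 0 counts (floor of 3 counts over the group). Rag1 and Rag2 also serve B cell precursors.

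Endou, an endoribonuclease gene of double-positive thymocytes, went from 67 counts to 1 in the Bcl11b libraries (ratio 65.2, exact 95% interval 11.3 to 2610) and was at least 44.8-fold lower in the Tcf7 mutants. Arpp21, another gene of that stage, changed by -4.36 and -5.60. The thymic homing receptor gene Ccr9 fell more in Bcl11b D/N440K (-3.06) than in Tcf7 F/F : Vav1-Cre (-1.003), with a difference of -2.06 ± 0.19 (edgeR adjusted p = 4.27e-08).

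The γδ T cell list had negative medians in both changes as well, -1.17 and -1.53. Of 23 tested members, 15 fell and 1 rose in Bcl11b D/N440K, where 4.05% and 3.82% of all genes did. In Tcf7 F/F : Vav1-Cre 12 fell, where 14.1% of all genes did, and 4 rose, which is near the 13.9% of all genes. Lower in both were 9, where 1.74% of all genes were, and 2 were opposite, Maf among them, where 1.78% were. Another 8 were one-sided (5 to 9 over the alternatives), against 1.51% of all genes for Bcl11b D/N440K and 7.49% for Tcf7 F/F : Vav1-Cre. The number lower in both was 5 without Bcl11b D/N440K replicate 1. Sox13, an HMG-box factor of γδ T cells (chr1:133382303-133424377, minus strand), stood at 555 and 404 CPM in Bcl11b +/+, 9.78 and 13.8 in D/N440K, 228 and 268 in the Tcf7 controls, and 7.76, 6.55 and 3.54 in the Tcf7 mutants. Both mutants were far below both controls. The changes were nearly equal, -5.35 ± 0.24 and -5.41 ± 0.23, and their difference of 0.06 ± 0.46 did not pass (edgeR adjusted p = 0.946). Id3, an inhibitor of E proteins downstream of the T cell receptor, changed by -1.57 and -2.64. Zbtb16, the PLZF gene of innate-like T cells and innate lymphoid precursors, fell more in Tcf7 F/F : Vav1-Cre (-1.96) than in Bcl11b D/N440K (-0.53), with a difference of 1.43 ± 0.21 (edgeR adjusted p = 3.96e-05). Its Bcl11b call was lost with DESeq2, with limma on CPM, with libraries holding Y-linked RNA only, and without each Bcl11b library in turn (edgeR adjusted p between 0.147 without +/+ replicate 2 and 0.222 without +/+ replicate 1).

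Within the T cell receptor signalling list, 8 of 29 tested genes were lower in both (5 to 9 over the alternatives), where 1.74% of all genes were. Another 9 were one-sided, against 1.51% of all genes for Bcl11b D/N440K and 7.49% for Tcf7 F/F : Vav1-Cre. Rasgrp1 was opposite, but in 10 of the 20 alternatives only. That call was lost with DESeq2, with limma on CPM, without a filter, with libraries holding Y-linked RNA only, and when Bcl11b +/+ replicate 1, either D/N440K library, Tcf7 +/+ replicate 1, or Tcf7 F/F : Vav1-Cre replicate 1 or 2 was left out (lost changes at edgeR adjusted p between 0.0538 and 0.188 with a library left out). Cd6, a coreceptor that tunes receptor signalling (chr19:10789341-10830058, minus strand), stood at 95.5 and 86.7 CPM in Bcl11b +/+, 7.11 and 5.29 in D/N440K, 85.2 and 98.4 in the Tcf7 controls, and 6.90, 4.76 and 5.90 in the Tcf7 mutants. Groups were apart in both tables and the difference of 0.14 ± 0.48 did not pass (edgeR adjusted p = 0.891). Cd3d fell in both by unequal amounts, from 105 and 100.3 CPM to 54.2 and 63.5 CPM in the Bcl11b libraries, and from 111 and 132 CPM to 1.72, 1.79 and 1.18 CPM in the Tcf7 libraries. Its difference was 5.41 ± 0.39 (edgeR adjusted p = 7.85e-10), and its Bcl11b change of -0.81 missed the threshold without any of Bcl11b +/+ replicate 1, Bcl11b +/+ replicate 2 or D/N440K replicate 1 (edgeR adjusted p between 0.051 and 0.155). Themis, a scaffold of thymocyte selection, changed by -1.60 and -5.40, and its Bcl11b call was lost with limma on CPM and without D/N440K replicate 1 (-1.24, edgeR adjusted p = 0.0727). Plcg1, the phospholipase downstream of the receptor, showed the reverse imbalance, at 154 and 171 CPM in Bcl11b +/+, 7.11 and 13.8 in D/N440K, 186 and 216 in the Tcf7 controls, and 106, 102 and 101 in the Tcf7 mutants. Its changes were -3.99 ± 0.25 and -0.96 ± 0.14, and the difference was -3.02 ± 0.30 (edgeR adjusted p = 1.27e-07). Lef1, the TCF-1 relative, fell in both (-1.83 and -1.06). Its difference of -0.77 passed here (edgeR adjusted p = 0.0208) but was lost in 8 of the 20 alternatives, including each in which a Bcl11b library or Tcf7 F/F : Vav1-Cre replicate 3 was left out (edgeR adjusted p between 0.0587 and 0.111).

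Genes higher in both included regulators and enzymes outside the T cell receptor pathway. Of the T lineage factors, 1 of 21 was higher in both, Zbtb7b. Id2, an inhibitor of E proteins needed by innate lymphoid cells, stood at 283 and 287 CPM in Bcl11b +/+, 554 and 604 in D/N440K, 312 and 259 in the Tcf7 controls, and 527, 461 and 428 in the Tcf7 mutants. All mutant libraries lay above their controls. The changes were 1.02 ± 0.13 and 0.72 ± 0.11, and their difference of 0.30 ± 0.17 did not pass (edgeR adjusted p = 0.275). Upp1, uridine phosphorylase (chr11:9118103-9136170, plus strand), stood at 2.10 and 2.55 CPM in Bcl11b +/+, 56.9 and 35.97 in D/N440K, 17.6 and 7.62 in the Tcf7 controls, and 219.8, 208 and 233 in the Tcf7 mutants. It rose from a low level in both tables, by 4.27 ± 0.48 and 4.12 ± 0.23, with a difference of 0.15 ± 0.74 that did not pass (edgeR adjusted p = 0.906). Nccrp1 changed by 2.66 and 3.05, and Srxn1, an antioxidant enzyme gene, by 2.84 and 2.38. Of the 329 same-direction genes, 61 had a difference that passed, 26 with the larger change in Bcl11b D/N440K and 35 with the larger change in Tcf7 F/F : Vav1-Cre. For the other 268, equal size was not shown. Under the alternatives, from 51.4 to 100% of the 329 stayed in the class, lowest without Bcl11b D/N440K replicate 1.

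Blk and Notch3 were among the genes with one-sided changes in Bcl11b D/N440K. Of the 155 genes of this class, 51.6% stayed in it with DESeq2 and 58.1% with limma on CPM. Fewer stayed without Bcl11b +/+ replicate 1 or either D/N440K library. Blk, a Src family kinase of B cells and γδ T cells (chr14:63372836-63417037, minus strand), stood at 289 and 242 CPM in Bcl11b +/+, 12.4 and 7.41 in D/N440K, 323 and 419 in the Tcf7 controls, and 303, 322 and 322 in the Tcf7 mutants. The D/N440K pair lay far below every other library, and the Tcf7 mutants, at 303 to 322 CPM, lay just under the Tcf7 +/+ range. The changes were -4.69 ± 0.24 and -0.23 ± 0.12, with a difference of -4.46 ± 0.28 (edgeR adjusted p = 1.18e-10). Without Tcf7 +/+ replicate 1 the Tcf7 change passed as well (-0.41, edgeR adjusted p = 0.00168).

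Notch3, a Notch receptor gene induced by Notch signalling in thymocytes (chr17:32120820-32166852, minus strand), stood at 166 and 162 CPM in Bcl11b +/+, 30.2 and 30.7 in D/N440K, 54.1 and 46.9 in the Tcf7 controls, and 60.3, 57.7 and 80.2 in the Tcf7 mutants. The D/N440K pair lay far below its controls, and the Tcf7 mutants lay slightly above theirs. The difference was -2.82 ± 0.28 (edgeR adjusted p = 1.03e-07), from changes of -2.42 and 0.40, and without Tcf7 +/+ replicate 1 the Tcf7 change passed (0.51, edgeR adjusted p = 0.0391). Pdlim4, a PDZ and LIM domain protein gene, changed by -4.11 against -0.31 (edgeR adjusted p of the difference = 5.70e-05). On the higher side, Avil, the actin-binding protein advillin, stood at 8.39 and 17.9 CPM in Bcl11b +/+ and 92.4 and 85.7 CPM in D/N440K, and between 11.7 and 24.8 CPM in all 5 Tcf7 libraries. Its difference was 2.51 ± 0.48 (edgeR adjusted p = 7.67e-04). Il18r1, chosen after its values were seen, rose by 0.99 and changed by 0.09 in the Tcf7 comparison, with a difference of 0.90 ± 0.17 (edgeR adjusted p = 6.58e-04).

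One-sided changes in Tcf7 F/F : Vav1-Cre included costimulatory, cytokine and growth factor receptors. Of the 768 genes of this class, 57.4% stayed in it with DESeq2 and 51.3% with limma on CPM. Fewer stayed with libraries holding Y-linked RNA only. Cd28, the costimulatory receptor of T cells (chr1:60716800-60773359, plus strand), stood at 74.5 and 82.5 CPM in Bcl11b +/+, 63.1 and 63.5 in D/N440K, 105 and 167 in the Tcf7 controls, and 1.72, 3.57 and 1.18 in the Tcf7 mutants. D/N440K lay slightly below Bcl11b +/+ without passing, and the 3 Tcf7 mutants, at 1.18 to 3.57 CPM, lay far below every other library. The changes were -0.32 ± 0.23 and -5.89 ± 0.31, with a difference of 5.58 ± 0.43 (edgeR adjusted p = 3.17e-09). Kit, the stem cell factor receptor (chr5:75574916-75656722, plus strand), stood at 125 and 99.5 CPM in Bcl11b +/+, 87.97 and 112 in D/N440K, 59.4 and 63.9 in the Tcf7 controls, and 348, 367 and 388 in the Tcf7 mutants. Here the Bcl11b groups overlapped and the Tcf7 mutants lay above every other library. The difference was -2.74 ± 0.22 (edgeR adjusted p = 6.10e-09).

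Il2ra, the interleukin 2 receptor α chain, had overlapping Bcl11b groups (26.4 to 50.8 CPM) and rose from 47.0 and 53.3 CPM to 324 to 374 CPM in the Tcf7 mutants, with a difference of -2.59 ± 0.32 (edgeR adjusted p = 3.08e-06). Cish, a target and inhibitor of STAT5 signalling, changed by 0.51 and 3.15. Without Tcf7 +/+ replicate 1 or replicate 2 its Bcl11b change passed too (0.52 and 0.50, edgeR adjusted p = 0.0245 and 0.0285). Bcl2, which protects lymphocytes from apoptosis, changed by 0.23 and 1.63. Heyl, a transcription factor gene of the Notch pathway, rose from 1.76 and 0.586 CPM to 75.0 to 98.3 CPM in the Tcf7 mutants and stood at 7.34 to 13.8 CPM in the Bcl11b libraries, with a difference of -5.54 ± 0.71 (edgeR adjusted p = 3.93e-06).

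Myc, the growth-promoting factor, stood at 261 and 265 CPM in Bcl11b +/+, 252 and 299 in D/N440K, 147 and 158 in the Tcf7 controls, and 45.7, 48.8 and 38.9 in the Tcf7 mutants. It fell only in the Tcf7 comparison by these tests, with a difference of 1.84 ± 0.20 (edgeR adjusted p = 4.68e-07). S1pr1, the receptor that guides lymphocytes out of the thymus, changed by 0.00 and -2.45 (edgeR adjusted p of the difference = 1.99e-07). Tcrg-C4, a γ chain constant gene, changed by -0.15 and -4.01, and is uncertain because the γ constant genes share sequence. Trat1, an adaptor of the T cell receptor, went from 108 counts to 1 in the Tcf7 libraries, a ratio of 144 (exact 95% interval 25.3 to 5730), and its Bcl11b change of -0.62 ± 0.41 did not pass. Trpm6, a magnesium channel gene, had the most positive difference of all genes, 7.39 ± 0.53 (edgeR adjusted p = 7.85e-10).

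**Figure D3:**
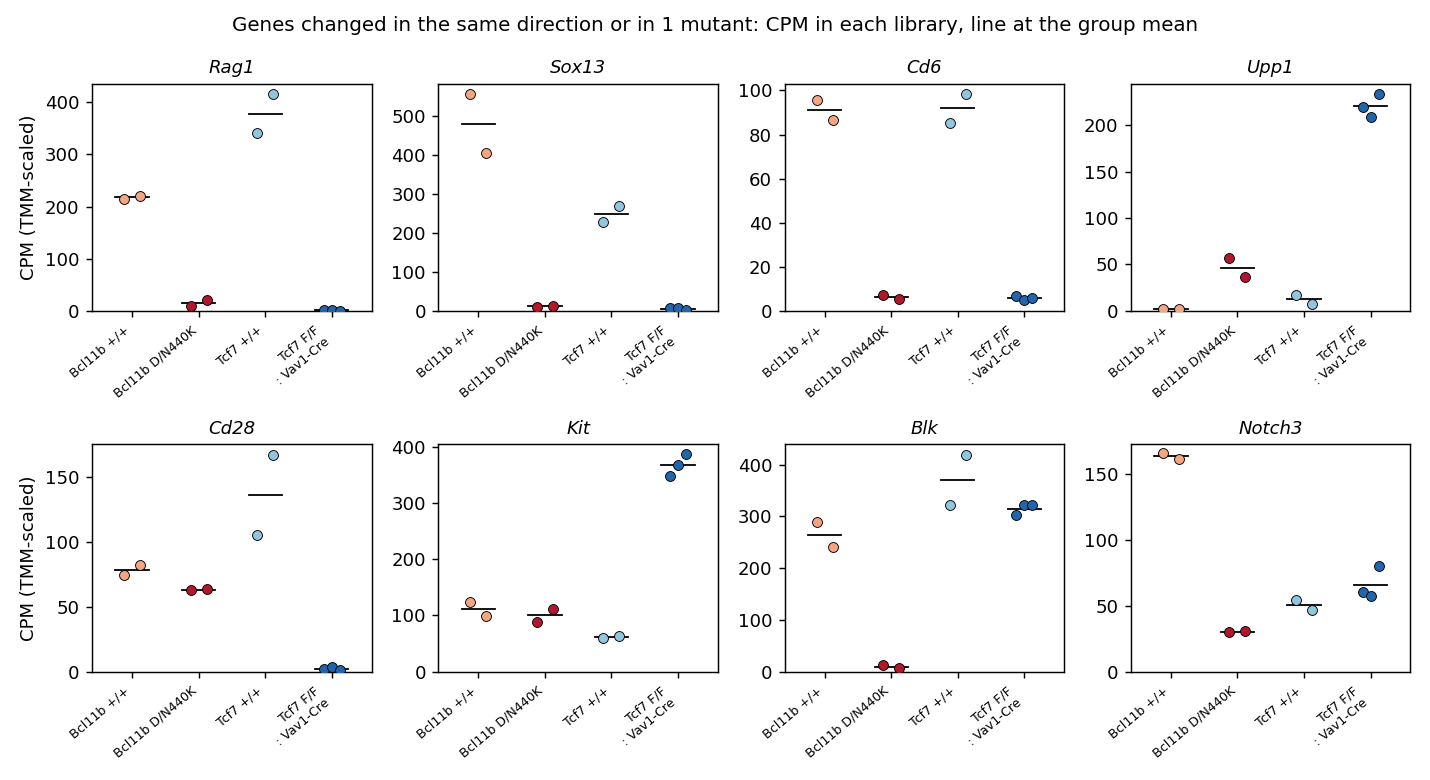
CPM in each of the 9 libraries for 8 genes, points for libraries and lines for group means. Rag1, Sox13 and Cd6 are lower and Upp1 is higher in both mutant groups, Blk and Notch3 are lower in Bcl11b D/N440K only by these tests, and Cd28 is lower and Kit higher in Tcf7 F/F : Vav1-Cre only.

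Cell cycle genes were mostly one-sided or unresolved. In the G2 and mitosis list, 21 of 25 tested genes fell (14.1% of all genes did) and 0 rose in Tcf7 F/F : Vav1-Cre. In Bcl11b D/N440K 1 rose, and the difference was positive and called for 17, where it was for 5.86% of all genes. The medians were 0.23 and -0.76, and 15 members were one-sided and lower in the Tcf7 mutant, where 3.78% of all genes were. That count ran from 6 to 18 over the alternatives, lowest with limma on CPM, and was 8 with libraries holding Y-linked RNA only. Mki67, the proliferation antigen, stood at 596 and 622 CPM in Bcl11b +/+, 745 and 803 in D/N440K, 628 and 1085 in the Tcf7 controls, and 460.3, 441 and 384 in the Tcf7 mutants. The Tcf7 +/+ pair was uneven, at 628 and 1085 CPM, but both lay above the mutants, and the difference was 1.34 ± 0.21 (edgeR adjusted p = 9.43e-05). Its Bcl11b change of 0.34 passed without Tcf7 +/+ replicate 1 and without replicate 2 (edgeR adjusted p = 0.00506 and 0.00631). Cenpe, a kinetochore motor, changed by 0.47 and -1.05. In the DNA replication list, 20 of 29 tested fell in Tcf7 F/F : Vav1-Cre, where 14.1% of all genes did. In Bcl11b D/N440K 0 passed (2 at an unadjusted edgeR p under 0.05, and 0 with DESeq2 or limma). Yet the difference passed for only 5 (17.2%), near the 12.1% of all genes. That count ran from 0 to 12 over the alternatives, highest without Tcf7 +/+ replicate 1 and lower than 5 when any other library was left out.

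The interferon response list rose in Tcf7 F/F : Vav1-Cre (15 of 26 tested, 0 lower, where 13.9% of all genes rose). In Bcl11b D/N440K 1 rose, which is near the 3.82% of all genes. One-sided members numbered 4, all higher in Tcf7 F/F : Vav1-Cre, where 3.71% of all genes were. That last count was 7 without Tcf7 +/+ replicate 1, and 1 or 2 without any Bcl11b library and without Tcf7 F/F : Vav1-Cre replicate 2 or 3. Usp18, a brake on interferon signalling, changed by -0.04 and 1.05, with a difference of -1.10 ± 0.26 (edgeR adjusted p = 0.00486). In glycolysis, 9 of 19 tested genes fell in Bcl11b D/N440K, where 4.05% of all genes did. In Tcf7 F/F : Vav1-Cre 7 fell, where 14.1% of all genes did, and 3 rose, which is near the 13.9% of all genes. Of the 19, 4 fell in both, where 1.74% of all genes did (2 with DESeq2 and without Bcl11b +/+ replicate 1 or D/N440K replicate 1). The lactate and pyruvate transporters parted: Slc16a3 was opposite (-0.93 and 0.89), Slc16a1 was one-sided (-0.24 and -2.91), and Slc16a5, a related carrier, fell in both. Ribosomal protein genes (46 tested) and oxidative phosphorylation genes (44 tested) each held 0 members called in Bcl11b D/N440K and 7 and 6 lower in Tcf7 F/F : Vav1-Cre, near the 14.1% of all genes that were lower, with 1 call of the difference in each list. In Bcl11b D/N440K, 0 of these ribosomal protein genes and 1 of the oxidative phosphorylation genes had an unadjusted edgeR p under 0.05, and limma on CPM called 1 ribosomal protein gene.

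Lists of signalling pathways, receptors and factors differed in how many members were called, where 7.87% of all genes passed in the Bcl11b change, 27.9% in the Tcf7 change and 12.1% in the difference. By class, 3.21% of all genes moved in the same direction (1.74% lower in both) and 1.78% were opposite. One-sided changes made up 1.51% of all genes for Bcl11b D/N440K and 7.49% for Tcf7 F/F : Vav1-Cre. In the Wnt and TCF/LEF list, 29 genes were tested, of which 2 rose and 2 fell in Bcl11b D/N440K and 3 rose and 5 fell in Tcf7 F/F : Vav1-Cre, with medians of 0.01 and -0.04. The difference passed for 24.1% of the Wnt list and 22.7% of the Notch list. In the Notch list, 1 of 22 rose and 1 fell in Bcl11b D/N440K, 6 rose and 1 fell in Tcf7 F/F : Vav1-Cre, and 5 were one-sided, Notch3, Heyl, Il2ra, Myc and Dtx4. Of 13 genes of the NuRD complex, a chromatin remodeller that BCL11B recruits, 0 passed in Bcl11b D/N440K with edgeR, where 1 had an unadjusted p under 0.05, and 0 or 1 passed with the other tools. Among chemokine and sphingosine receptors, 9 of 19 tested were one-sided, 4 opposite and 1 lower in both, and the difference passed for 78.9%. Cytokine receptor and JAK-STAT genes (32 tested) divided into 3 in the same direction, 4 opposite and 11 one-sided, and the difference passed for 46.9%. T lineage factors (21 tested) divided into 6 in the same direction, 2 opposite (6 and 5 without Tcf7 +/+ replicate 1 or 2) and 6 one-sided (3 without Bcl11b +/+ replicate 1), and Gata3 and Bcl11a passed in none of the 3 tests. Their log2 changes were -0.21 and 0.22 for Gata3 and -0.64 ± 0.21 and -0.07 ± 0.14 for Bcl11a, whose Bcl11b change passed in 6 of the 20 alternatives, among them those without Tcf7 +/+ replicate 1 and without replicate 2 (edgeR adjusted p = 0.00288 and 0.00229).

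**Figure D4:**
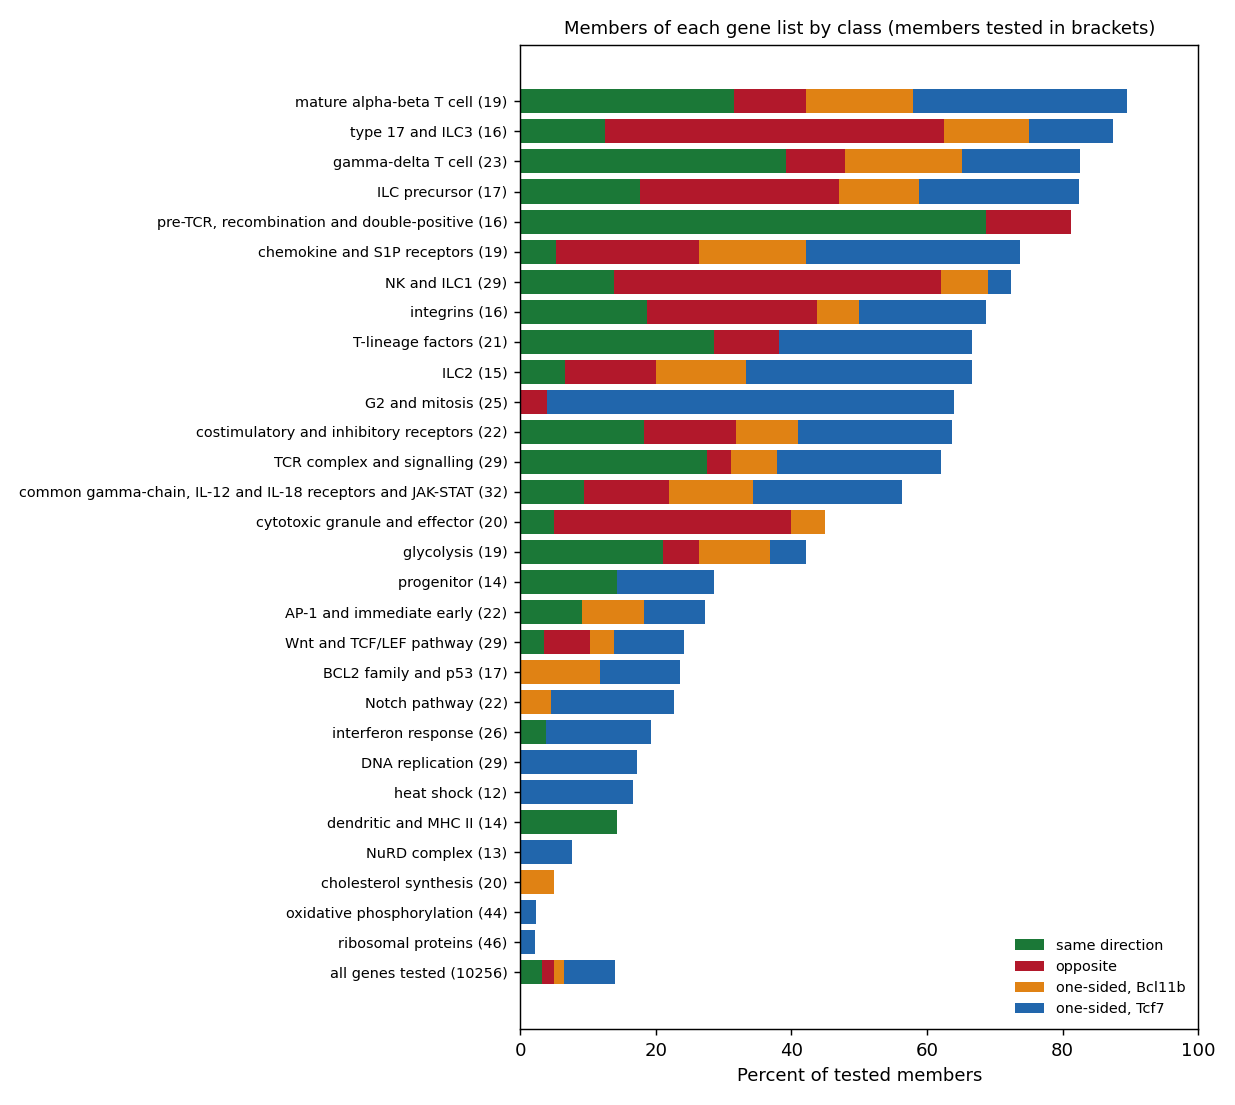
Percent of tested members in each class, as stacked bars, for gene lists with at least 10 tested genes. The opposite share is largest in the type 17 and ILC3 list (8 of 16) and the NK and ILC1 list (14 of 29), the same-direction share in the pre-TCR list (11 of 16), and the one-sided share in the G2 and mitosis list (15 of 25).

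**Figure D5:**
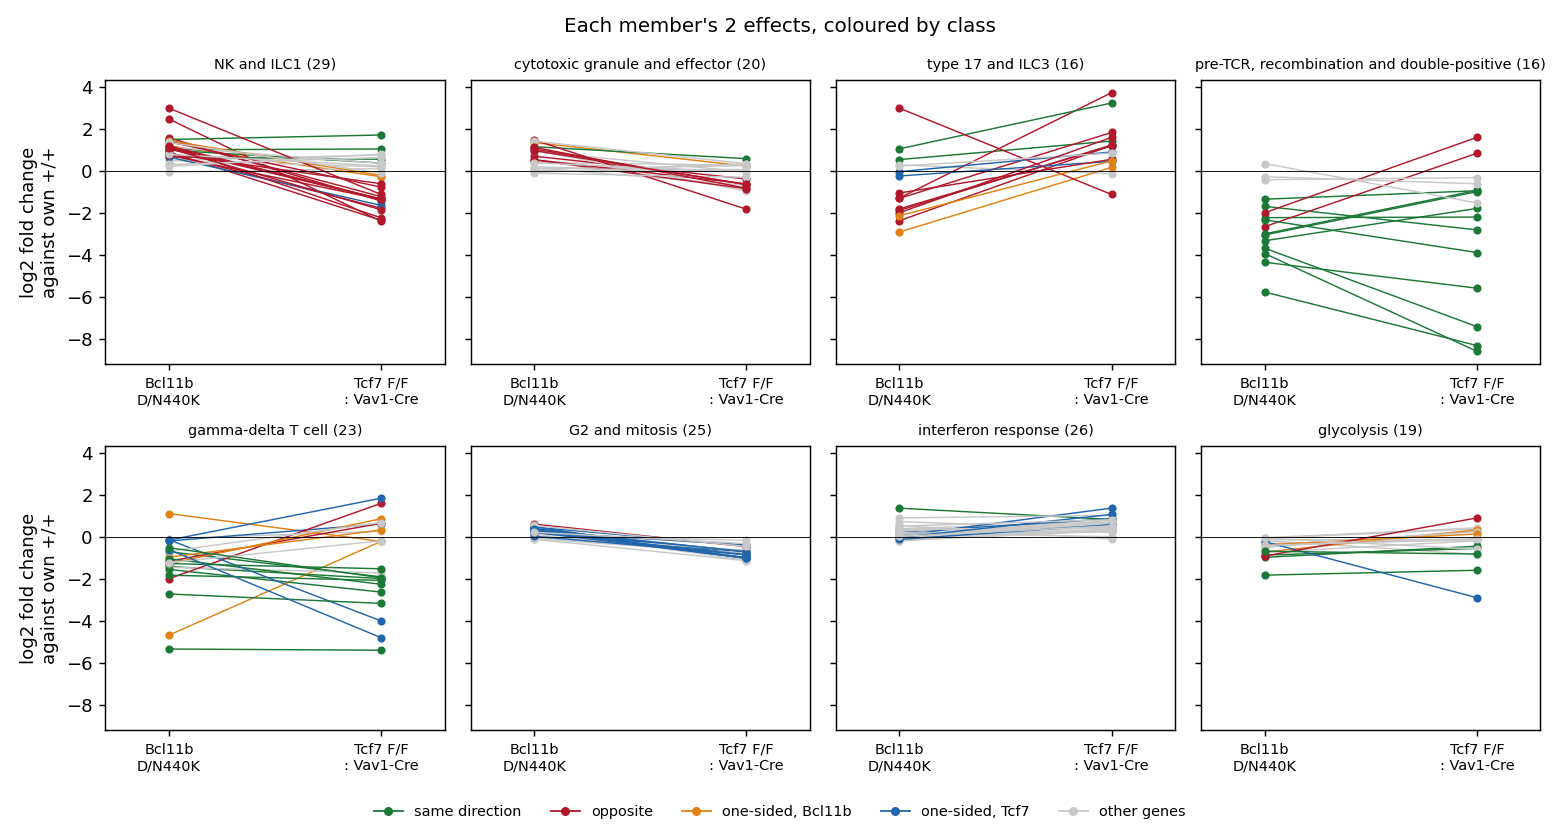
Log2 change of each tested member of 8 lists in Bcl11b D/N440K and in Tcf7 F/F : Vav1-Cre, with points for genes. The medians of the NK and type 17 lists lie on opposite sides of 0 (1.04 and -0.62, and -1.18 and 1.03). Those of the pre-TCR and γδ lists lie below 0 in both, and that of the mitosis list in the Tcf7 change only (0.23 and -0.76). Some members lie on the other side: 7 of 29 NK and 4 of 23 γδ genes rose in Tcf7 F/F : Vav1-Cre, where 13.9% of all genes did. In Bcl11b D/N440K 3 of 16 type 17 genes rose, where 3.82% of all genes did.

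The heterozygous Bcl11b +/N440K libraries (2, postnatal day 0) entered none of these tests. They share the Bcl11b +/+ controls with D/N440K, so their values are given beside it and no agreement is drawn from them. On the scale of all 11 libraries, Il1r1 stood at 39.3 and 29.4 CPM in +/N440K and Pdcd1 at 59.4 and 93.2 CPM. For genes of the first opposite kind, Eomes stood at 81.1 and 75.01 CPM, Ncr1 at 91.97 and 73.99 CPM and Tbx21 at 271 and 330.4 CPM. These lie between the +/+ and D/N440K values for Il1r1, Pdcd1, Eomes and Ncr1, and overlap D/N440K for Tbx21. Rag1 was lower in +/N440K than in D/N440K, at 2.51 and 1.01 CPM against 8.78 and 19.8 CPM on the same scale. Blk stood at 25.9 and 29.4 CPM, Sox13 at 23.4 and 15.2 CPM and Notch3 at 35.1 and 22.3 CPM, each below the Bcl11b +/+ range.

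Of 164 genes chosen by the naming rule, 73 overlap another annotated gene, and the strand used in counting is not stated in the sources used here, so reads of antisense or overlapping neighbours are not separated for them. The Bcl11b libraries varied less than the Tcf7 libraries (biological coefficient of variation 0.0358 and 0.114 when fitted alone), and the fit used 1 shared estimate per gene (0.0955). With limma-voom, a spread per table in place of a shared one moved the calls from 680 to 1262 for the Bcl11b change and from 2864 to 2360 for the Tcf7 change.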

How the data were processed

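RNA of sorted thymocytes was sequenced after a modified RamDA-seq protocol with Tn5 cutting, per the labels. The authors deposited whole read counts per gene on mm10 (GRCm38). Tools named in the submitters' processing notes are HTSeq 0.11.2, STAR 2.7.3a, fastp 0.20.0, Picard 2.21.1, SAMtools 1.9 and edgeR. The annotation release is not given in the sources used here. The authors' deposited CPM gave back whole counts for 100% of values within 0.001.

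The deposited counts of 9 libraries (4 groups, 5 residual degrees of freedom, TMM scaling) were fitted with edgeR 4.0.16 (quasi-likelihood) in R 4.3.3, with limma 3.58.1 and DESeq2 1.42.0 as alternatives. The 2 changes and their difference were called at a two-sided Benjamini-Hochberg adjusted p under 0.05 over 10256 genes. An SE is the log2 change divided by the square root of its F statistic. Groups at 0 counts were given a floor of 3 counts, and ratios with 1 to 3 counts an exact 95% interval. On simulated data with 10256 genes, 100 were changed 2-fold and 100 changed 4-fold, each in 1 of the 2 tables only. Of these, 45% of 2-fold and 86% of 4-fold differences were recovered, and 0.758% of 132 calls were false. Many more genes were called in the real data, so these rates need not carry over to those calls. Figures were drawn with Python 3.11.15 and matplotlib 3.10.9.

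The genes compared, the 35 gene lists (743 genes, 590 tested) and the tests were chosen with earlier results of these data known. The text named 10 regulators, up to 6 genes per class and direction by size of change (average log2 CPM of 3 or more), and per list the 3 smallest p of the difference and every opposite member. Other members named to spell out a count were chosen after their values were seen. Some genes that the rule names are not reported here; the list counts include them. The number of per-sample columns left unused was 0. Alternatives were other normalization, filters, tools, a spread per table, all 11 libraries, a replicate block and each library left out; reads recovered from CPM and libraries with Y-linked RNA only were added after seeing the data.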

Additional observations from a re-analysis of the deposited data

How the results depend on the processing

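Of the 20 alternatives, 18 were planned and 2 added after seeing the data. The values of 164 named genes (3 each, 374 called) stayed on the same side of the threshold in 9281 cases, became called in 105 and lost the call in 452. Of the 9281, 80 (32 values) changed sign while called in neither analysis, and 0 values called in the full set changed sign. A further 2 became called with the other sign: the Tcf7 changes of Adamts14 (-0.71, and from -1.43 to 0.72 with a library left out) and S100a8 (-0.49, and from -1.44 to 3.30), positive without Tcf7 +/+ replicate 1 and replicate 2 in turn, and neither called in the full set. No gene moved between the same-direction and opposite classes under any alternative. DESeq2 called the difference for 789 genes, with 188 in the same direction, 475 one-sided for Tcf7, 536 for the Bcl11b change and 1773 for the Tcf7 change; the cause was not tested. Limma on CPM gave 478 one-sided for Tcf7 and 1829 for the Tcf7 change. Limma-voom with a spread per table gave 267 one-sided for Bcl11b and 1262 for the Bcl11b change. With libraries holding Y-linked RNA only, which leaves fewer samples, the counts were 689 for the difference, 205 in the same direction, 120 opposite, 345 one-sided for Tcf7 and 1155 for the Tcf7 change. Leaving out each library in turn gave 761 to 2584 for the difference, 172 to 506 in the same direction, 108 to 278 opposite, 74 to 260 one-sided for Bcl11b, 505 to 1767 one-sided for Tcf7, 406 to 1227 for the Bcl11b change and 1957 to 4195 for the Tcf7 change, with the lone library of a group assumed to vary like the others. A filter of CPM 5 in 2 libraries of each table kept more genes (11277) and gave 1310. Without a filter, 20076 genes gave 1602, and reads recovered from CPM gave 1240.

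Replicate numbers did not pair the libraries: deviations of same-numbered libraries correlated at -0.05 in the Bcl11b table and at -0.24 and 0.13 in the Tcf7 table. With the replicate block, the counts were 1031 for the difference, 298 in the same direction, 167 opposite, 168 and 573 one-sided, and 818 and 2059 for the 2 changes.

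Depth limits what can be seen: at 999381 to 1842717 counts per library and 2 or 3 libraries a group, a gene without a call is not shown to be unchanged.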
